A study of Mus musculus with 20 samples.

Results

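Cells sorted from the mammary gland as CD200+CD200R1+ mammary repopulating units (MRU) were compared with CD200+ cells outside the MRU gate. The members were the raw count libraries that the sample labels assign to these populations, 5 a side from mice 2 to 6, which made 10 of the 20 libraries of the study. The study, titled for sub-populations of the MRU, sequenced RNA of 4 sorted populations from each of 5 mice, sorted by MRU status and by the surface proteins CD200 and CD200R1. The mice were virgin FVB/N females of 6 to 8 weeks, with no transgene, allele or treatment named. Cells came from the fourth inguinal glands, were dissociated, depleted of lineage-positive cells with a mammary enrichment kit and sorted by flow cytometry, and each library was made from 1000 cells with SMART-Seq V4, a full-length polyA kit for low input. The MRU gate takes cells with medium CD24 and high CD49f, the integrin alpha 6 chain. In it, the CD200+CD200R1+ MRU carried both surface proteins. The CD200+ non-MRU lay outside that gate, carried CD200 and lacked CD200R1. The gates therefore differ both in MRU status and in CD200R1, and those sources of a difference cannot be told apart here. Each mouse gave a library to both sides, so the libraries can be paired by mouse. The labels call all cells epithelial, and the epithelial adhesion gene Epcam was present in all 10 libraries, at 417 to 768 CPM in CD200+CD200R1+ MRU and 820.1 to 1740.0 CPM in CD200+ non-MRU (CPM, counts scaled by library size and edgeR's TMM factors).

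The mammary ductal tree has an outer basal layer, made mainly of contractile myoepithelial cells that rest on a basement membrane, and an inner luminal layer. The luminal layer holds hormone-sensing cells, which carry estrogen and progesterone receptors, and alveolar progenitors, which are primed for milk production. The MRU gate enriches for basal cells, and MRU are named for their ability to rebuild a ductal tree when transplanted into a cleared fat pad. CD200 is a membrane glycoprotein, and CD200R1 is its inhibitory receptor, best known on myeloid cells.

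The 10 libraries held 11317878 to 13862963 counts. Values are CPM, with the mean ± SD over 5 libraries (n = 5) where a mean is given. Folds, their standard errors on the log2 scale (SE) and Benjamini-Hochberg adjusted p-values are from edgeR's quasi-likelihood test, with 0.05 as the threshold. The threshold was met by 8359 of 17236 genes (48.5%), with CD200+CD200R1+ MRU the higher side for 4125 (23.9%) and the lower side for 4234 (24.6%). Of these, 5060 differed 2-fold or more (29.4%), 2662 upward (15.4%) and 2398 downward (13.9%). A difference of 4-fold or more was seen upward for 1329 genes (7.71%) and downward for 957 (5.55%). The 5 and 5 libraries did not overlap for 6314 genes (36.6%), 3217 upward (18.7%) and 3097 downward (18%). Gene lists are read against these shares and against the median log2 fold change over all genes tested, -0.029. The authors' deposited table gives adjusted p-values below 0.05 to 8565 genes, 4384 of them higher and 4181 lower. Mitochondrial transcripts took 4.31 ± 0.394% of counts in CD200+CD200R1+ MRU and 2.74 ± 0.144% in CD200+ non-MRU (SD, n = 5, exact permutation test, two-sided, p = 0.00794, the smallest the design allows). Paired by mouse, a sign-flip permutation test gave p = 0.0625, the smallest that 5 pairs allow, and the call was lost. The share was higher in 5 of 5 mice. The CD200+ non-MRU library of mouse 6 had the lowest fibroblast and the highest B-cell marker sum of its population. Its 21 fibroblast markers summed to 14062 CPM against 24644 to 29098 in the other libraries of that population, and its 16 B-cell markers summed to 5630.4 against 2881 to 3912. Without it 7932 genes passed.

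**Figure D1:**
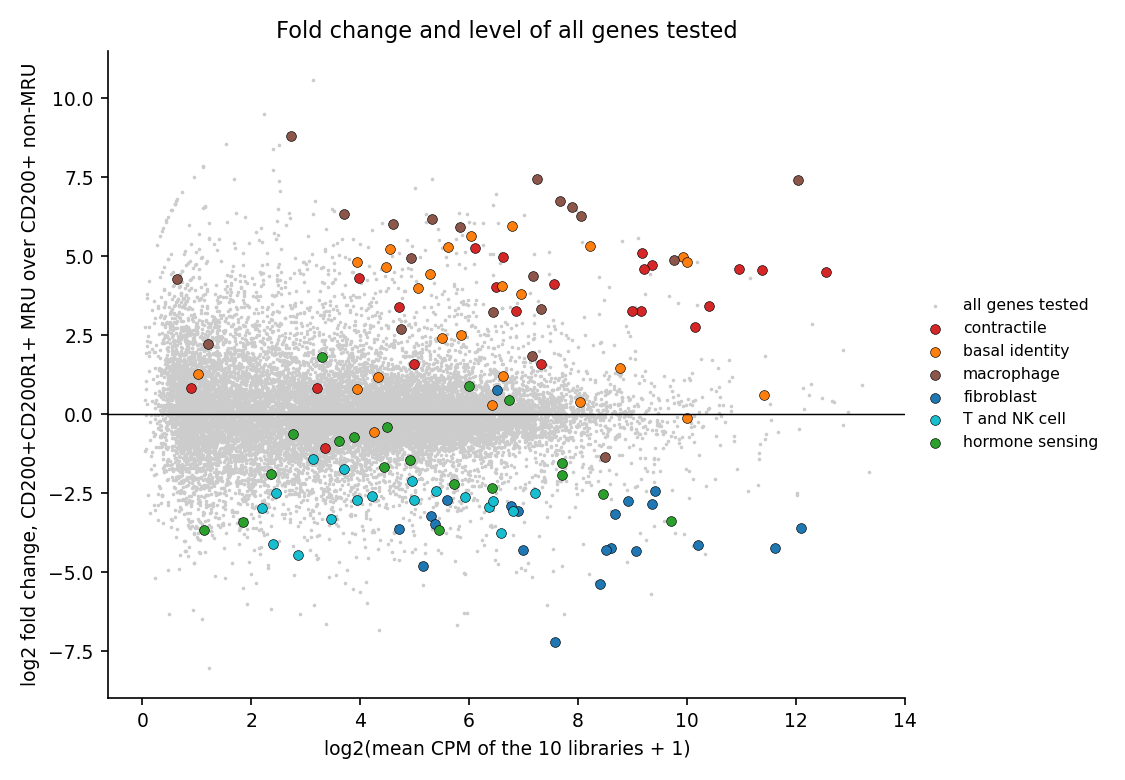
Fitted log2 fold change (CD200+CD200R1+ MRU over CD200+ non-MRU) against log2(mean CPM of the 10 libraries + 1) for the 17236 genes tested, in grey, with members of 6 lists in colour. Contractile, basal and macrophage genes lie mostly above 0 and fibroblast, T and NK cell and hormone-sensing genes mostly below.

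Cd200, the gene of the protein that both gates select (ENSMUSG00000022661, chromosome 16, 45382135 to 45409053, minus strand, GENCODE annotation of GRCm38, as for all gene positions here), was measured at 103, 110.3, 76.8, 91.1 and 127 CPM in the CD200+CD200R1+ MRU libraries of mice 2 to 6. The CD200+ non-MRU libraries held 172, 212, 237, 156 and 221 CPM. The MRU side was lower in every mouse and the groups did not overlap. The level was 1.96-fold lower (SE 0.20, adjusted p = 0.000357). Cd200r1 (ENSMUSG00000022667, chromosome 16, 44765736 to 44794978, plus strand) was low on both sides, at 1.65, 1.76, 4.91, 3.07 and 2.4 CPM in CD200+CD200R1+ MRU. In CD200+ non-MRU, which was sorted as lacking the protein, it stood at 7.26, 2.58, 1.36, 5.88 and 3.18 CPM. The groups overlapped and the log2 difference of -0.55 did not pass (SE 0.72, 95% interval -2.05 to 0.94, adjusted p = 0.552), so the mRNA gave no separation of the CD200R1 gate at this depth. Itga6 (ENSMUSG00000027111, chromosome 2, 71745616 to 71858416, plus strand), which encodes CD49f, had 1376, 1040.0, 1039.8, 1071 and 1039.9 CPM in CD200+CD200R1+ MRU and 69.5, 101, 79, 83.3 and 63.8 CPM in CD200+ non-MRU. It was 14-fold higher (SE 0.23, adjusted p = 7.88e-11), the direction of the CD49f gate. Cd24a averaged 639.5 ± 174 against 825 ± 120.5 CPM and did not pass (log2 -0.37, SE 0.27, adjusted p = 0.27). Of 6 tested genes of the CD200 pathway, 2 rose (33.3%), among them Rasa1, 1 fell (16.7%), which was Cd200, and 3 did not pass. Of all genes tested, 23.9% rose and 24.6% fell. Rasa1, which encodes a RasGAP that the receptor recruits through the adaptor Dok2, was 1.96-fold higher (SE 0.14, adjusted p = 8.72e-06). Dok2 averaged 11.2 ± 4.87 against 13.5 ± 6.52 CPM and did not pass.

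Genes of basal identity were higher in CD200+CD200R1+ MRU. Of 25 basal genes, 19 rose and none fell, with a median log2 fold change of 3.80. The transcription factor Trp63 (ENSMUSG00000022510, chromosome 16, 25683763 to 25892102, plus strand), the master regulator of basal epithelium, stood at 123, 113, 122, 136 and 141 CPM on the MRU side. Its level in CD200+ non-MRU was 1.74, 1.26, 5.42, 2.79 and 1.39 CPM. The lowest MRU library lay far above the highest library of the other side, and the fold was 50.1 (SE 0.30, adjusted p = 1.45e-11). The basal keratin Krt5 (ENSMUSG00000061527, chromosome 15, 101707070 to 101712898, minus strand) was at 637, 588, 661, 484 and 526 CPM in CD200+CD200R1+ MRU. It was at 12, 12.1, 21.8, 23.3 and 2.12 CPM in CD200+ non-MRU, lowest in the library of mouse 6, and the fold was 40.5 (SE 0.40, adjusted p = 1.28e-09). Its dimer partner Krt14, which the naming rule did not take and which was chosen after its values were seen, averaged 1881 ± 498 against 59.8 ± 36 CPM, a fold of 31.4 (SE 0.50). The hemidesmosomal collagen Col17a1 averaged 214 ± 24.7 against 3.42 ± 2.37 CPM, 62-fold (SE 0.41). Id4, an inhibitor of DNA-binding protein of basal cells, averaged 94 ± 16.7 against 2.38 ± 1.61 CPM, 38.9-fold (SE 0.37). Among the 6 members that did not pass, those with the highest levels were Vim, at 978 ± 165 against 1057 ± 198 CPM, and Cd44, at 296 ± 17.1 against 225 ± 35.5 CPM. Cd44 was called when any of 5 libraries was dropped, namely CD200+CD200R1+ MRU of mouse 4, 5 or 6 or CD200+ non-MRU of mouse 2 or 3. It passed with mouse as a block as well (log2 0.41, adjusted p = 0.0175). Without CD200+CD200R1+ MRU of mouse 6 the log2 value of Vim was 0.011. In libraries of 1000 sorted cells, fewer cells of a type and less RNA per cell cannot be told apart, here and below.

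**Figure D2:**
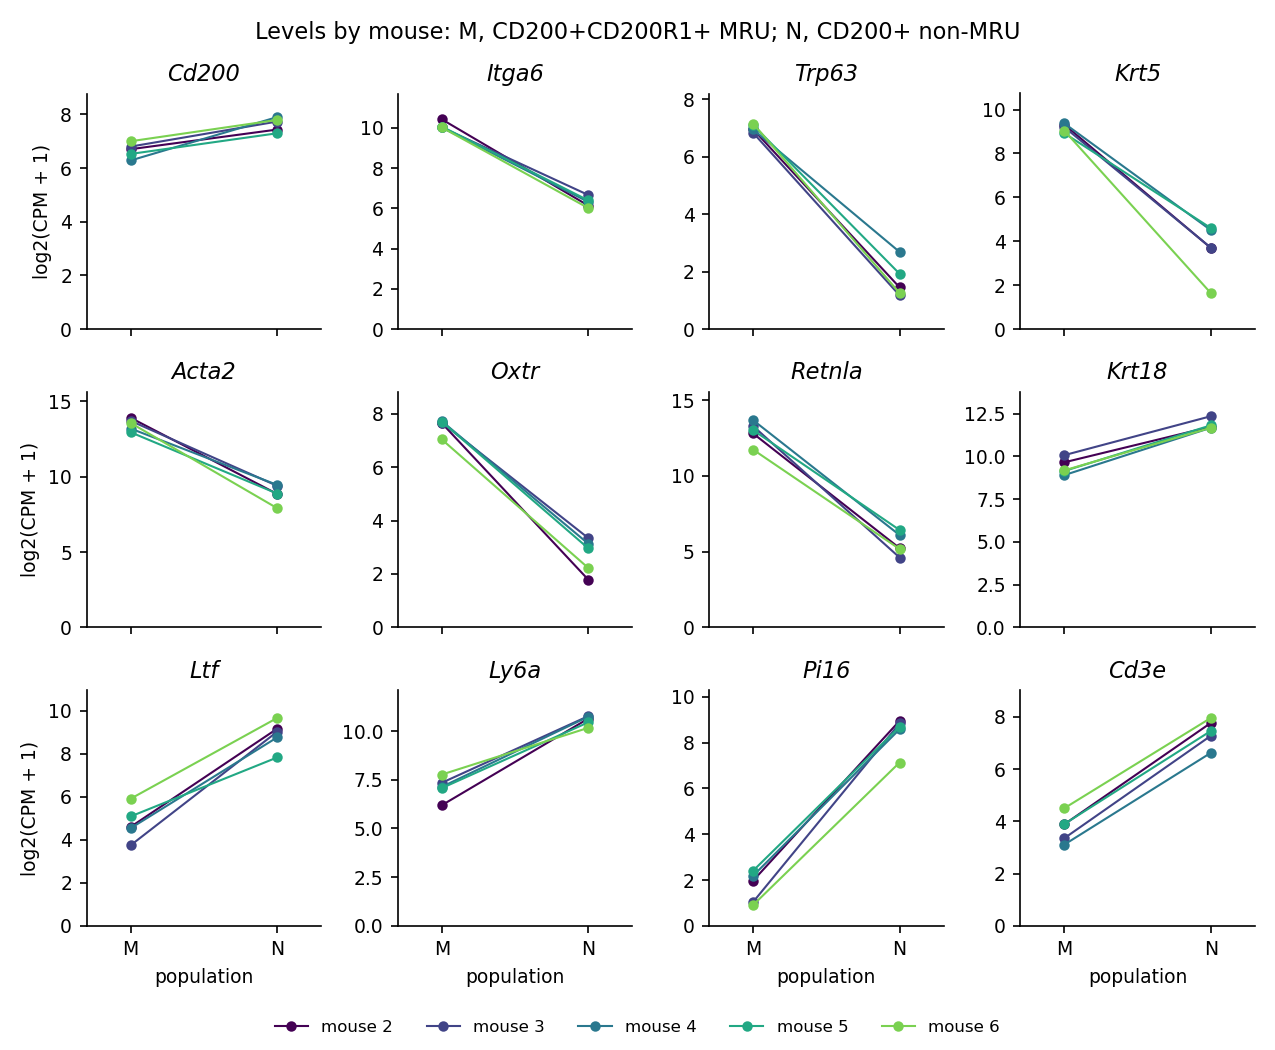
Log2(CPM + 1) of 12 genes in the 10 libraries, with a line joining the CD200+CD200R1+ MRU library (M) and the CD200+ non-MRU library (N) of each of mice 2 to 6. Itga6, Trp63, Krt5, Acta2, Oxtr and Retnla are lower in N in all 5 mice, and Cd200, Krt18, Ltf, Ly6a, Pi16 and Cd3e are higher in N in all 5.

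Genes of the contractile apparatus of myoepithelial cells were higher in CD200+CD200R1+ MRU. Of 22 genes, 20 rose and none fell, with a median log2 fold change of 3.72, and 1 fell when the 10 libraries were fitted alone, with or without mouse as a block. Acta2 (ENSMUSG00000035783, chromosome 19, 34241090 to 34255590, minus strand), the smooth muscle actin of myoepithelium, had 15256, 13260.0, 9313, 7853 and 12037 CPM in CD200+CD200R1+ MRU. In CD200+ non-MRU it had 461, 669, 699, 469 and 239 CPM. The groups did not overlap, and the fold was 22.7 (SE 0.43, adjusted p = 4.07e-08). Oxtr (ENSMUSG00000049112, chromosome 6, 112473683 to 112489943, minus strand), the oxytocin receptor that triggers milk ejection, had 199, 201, 209, 207 and 129.8 CPM on the MRU side. The CD200+ non-MRU libraries had 2.45, 9.14, 7.76, 6.77 and 3.67 CPM, and the fold was 31.6 (SE 0.29, adjusted p = 3.72e-11). Mylk, the myosin light chain kinase, averaged 1119 ± 169 against 32.3 ± 8.84 CPM, and the smooth muscle myosin heavy chain Myh11 averaged 1262 ± 269 against 48.1 ± 10.3. The folds were 34.6 (SE 0.27) and 26.2 (SE 0.42). The intermediate filament protein synemin (Synm) was 38.2-fold higher (SE 0.32) and transgelin (Tagln) 23.8-fold (SE 0.37). The members that did not pass were the muscle filament gene Des, at 5.94 ± 2.53 against 12.4 ± 3.1 CPM, and the cofactor Myocd, at 1.1 ± 0.675 against 0.612 ± 0.417 CPM. Des was called lower when the 10 libraries were fitted alone (log2 -1.01, adjusted p = 0.0185). The summed CPM of the 22 genes ran from 23482 to 39720.2 on the MRU side and from 1231 to 2428 on the other, 6% of the MRU mean. Smooth muscle of vessels expresses many of these genes. Of 12 pericyte and smooth muscle markers 1 rose and 4 fell, and 2 rose with the 10 libraries alone, without the filter on low counts or without CD200+CD200R1+ MRU of mouse 4. Their sums were 98.9 to 218 CPM on the MRU side and 155 to 216 on the other, and their part in the contractile result was not tested.

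Serum response factor (Srf) binds the CArG element and drives contractile genes in smooth muscle. Srf itself was 3.05-fold higher (SE 0.20, adjusted p = 1.27e-06), at 56.2, 49.5, 42.4, 43 and 41.6 CPM in CD200+CD200R1+ MRU and 13.4, 17.4, 16, 18.2 and 11.3 CPM in CD200+ non-MRU. Myl9, the regulatory light chain that Mylk phosphorylates, was 10.7-fold higher (SE 0.23, adjusted p = 2.81e-10), at 2467 ± 557 against 230.2 ± 46.2 CPM. Both were chosen for display because their promoters hold the element, after their values were seen. The 250 bases before their RefSeq starts (GRCm38.p6) are shown 5′ to 3′ on the gene's strand, with the CArG matches in capitals. Myl9 lies at chr2:156775214-156775463 on the plus strand, and Srf at chr17:46556163-46556412 on the minus strand.
Myl9: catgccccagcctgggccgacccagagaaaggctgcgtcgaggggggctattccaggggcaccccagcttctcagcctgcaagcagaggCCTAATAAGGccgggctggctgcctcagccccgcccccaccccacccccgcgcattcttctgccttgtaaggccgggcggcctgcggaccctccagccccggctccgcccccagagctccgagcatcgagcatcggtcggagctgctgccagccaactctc
Srf: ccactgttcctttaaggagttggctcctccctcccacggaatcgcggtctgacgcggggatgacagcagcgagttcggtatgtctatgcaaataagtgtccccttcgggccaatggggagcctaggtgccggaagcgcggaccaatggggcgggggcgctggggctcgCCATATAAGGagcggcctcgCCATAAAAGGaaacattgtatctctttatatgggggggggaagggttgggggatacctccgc
The match of Myl9 began at -161 from the start site, and those of Srf at -82 and -62. Searched on both strands, a CArG match was in 2 of the 17 contractile genes with a window and in 482 of all 32851 windows of that length, 1.47%. A gene counted if any of its windows matched, and some genes had several, so the gene and window shares differ in unit. A match is a description of letters and not a binding site, and the windows of Acta2, Mylk and Oxtr held none within these 250 bases.

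Luminal genes were mostly lower in CD200+CD200R1+ MRU, with named exceptions among transcription factors. Of 26 genes for luminal keratins and identity, 14 fell and 4 rose, with a median log2 fold change of -1.28. The simple keratin Krt18 (ENSMUSG00000023043, chromosome 15, 102028180 to 102032027, plus strand) stood at 804, 1075, 478, 565 and 580.2 CPM in CD200+CD200R1+ MRU. In CD200+ non-MRU it stood at 3401, 5209, 3263, 3599.9 and 3263 CPM. It was lower in all 5 mice by a fold of 5.35 (SE 0.47, adjusted p = 0.000264) yet was not near 0 on the MRU side. Krt19 was 4.8-fold lower (SE 0.45), and Muc1, an apical mucin, 7.03-fold (SE 0.27). The prolactin receptor Prlr averaged 103 ± 50.2 against 598 ± 150.2 CPM, 5.8-fold lower (SE 0.34). The 4 luminal-list members that rose were the transcription factors Tfap2c, Grhl2 and Gata3 and the keratin Krt23. Tfap2c, an AP-2 factor, averaged 104 ± 20.4 against 8.94 ± 3.61 CPM, 11.6-fold higher (SE 0.29, adjusted p = 3.80e-09). Gata3, best known for maintaining luminal cells, had 84.9, 90.8, 73.2, 84.6 and 73 CPM on the MRU side and 35.2, 38.9, 44.9, 41.4 and 58.2 CPM on the other. Its groups did not overlap, and the fold was 1.86 (SE 0.17, adjusted p = 0.000209).

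Of 19 hormone-sensing genes, 13 fell and 2 rose, Gata3 and the T-box factor Tbx3, and the list median was -1.67 on the log2 scale. Ly6a (ENSMUSG00000075602, chromosome 15, 74994877 to 74998031, minus strand), the gene of the surface antigen Sca-1, had 72.2, 162, 139.5, 134 and 217 CPM in CD200+CD200R1+ MRU. It had 1596, 1743, 1706, 1398 and 1149 CPM in CD200+ non-MRU, where no library came near the MRU values, and the fold was 10.5 lower (SE 0.23, adjusted p = 3.23e-10). Fibroblasts express Ly6a as well, and its mean in the CD200R1+ non-MRU of the same mice, a population outside this comparison, was 1916 CPM. Tph1, the enzyme of mammary serotonin synthesis, was 12.6-fold lower (SE 0.85), the ligand Areg 2.92-fold (SE 0.37) and the estrogen receptor Esr1 2.72-fold (SE 0.31). The naming rule did not take Esr1, which was chosen after its values were seen, and its groups overlapped at 9.91 to 21.7 CPM against 18.8 to 55.8. The progesterone receptor Pgr did not pass, at 18.5 ± 1.49 against 24.6 ± 8.98 CPM (log2 -0.41, SE 0.40).

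Of 30 genes of luminal progenitors and alveolar cells, 17 fell and 2 rose, with a median log2 fold change of -1.77. Ltf (ENSMUSG00000032496, chromosome 9, 111019271 to 111042767, plus strand), the milk iron-binding protein lactoferrin, had 23.2, 12.4, 22.2, 32.9 and 58.9 CPM in CD200+CD200R1+ MRU. In CD200+ non-MRU it had 571, 518, 431, 225 and 807 CPM, and the fold was 17 lower (SE 0.51, adjusted p = 1.42e-06). Aldh1a3, a retinaldehyde dehydrogenase of luminal progenitors, was 14.5-fold lower (SE 0.60), and Elf5, the alveolar transcription factor, 4.93-fold (SE 0.29), the latter chosen after its values were seen. The milk protein kappa-casein, Csn3, averaged 1251 ± 447 against 7041 ± 3045 CPM, 5.63-fold lower (SE 0.38). Beta-casein, Csn2, varied between mice on both sides, with 22.7, 11.2, 968, 97.1 and 1772 CPM in CD200+CD200R1+ MRU and 779, 431, 1444, 547 and 8600.3 CPM in CD200+ non-MRU. It did not pass without the pairing (log2 -2.04, SE 1.20, adjusted p = 0.167), and with mouse as a block it passed (log2 -2.98, adjusted p = 0.00474), being lower on the MRU side in 5 of 5 mice. The members that rose were Cd14 and Sox9, and 4 rose when the 10 libraries were fitted alone with mouse as a block. Cd14, a Toll-like receptor coreceptor used as a luminal progenitor marker and also expressed by macrophages, was 2.11-fold higher (SE 0.34, adjusted p = 0.0124). Sox9 was 1.72-fold higher (SE 0.25, adjusted p = 0.0139), a call lost when the CD200+CD200R1+ MRU library of mouse 2 was dropped (adjusted p = 0.0593).

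Matrix genes changed in both directions. Of 24 collagens, 12 rose and 10 fell. Basement membrane collagens were among those that rose, with Col4a2 at 653 ± 58.4 against 53.6 ± 19.4 CPM (12.2-fold, SE 0.22) and Col4a6 16.6-fold higher (SE 0.33). The anchoring fibril collagen Col7a1 was 50.9-fold higher (SE 0.45), and 77.7-fold without CD200+ non-MRU of mouse 4. The fibrillar collagens Col1a1, Col1a2 and Col3a1 fell by folds of 9.01 (SE 0.33), 6.65 (SE 0.27) and 5.42 (SE 0.29). All 3 also belong to the fibroblast marker list, whose sum was 8.26% as large in CD200+CD200R1+ MRU as in CD200+ non-MRU, and the part of those markers in the collagen result was not tested. Of 19 genes for laminins and other basement membrane proteins, 13 rose and 4 fell. The laminin chains Lama1 and Lama3 rose by folds of 33.4 (SE 0.38) and 27.6 (SE 0.38), at 159.9 ± 23.5 against 4.77 ± 3.23 and 181 ± 19.9 against 6.51 ± 4.28 CPM. The 4 that fell were Lama2, Lama4, the nidogen Nid1 and Fbln1, and their means in the CD200R1+ non-MRU were 706, 275, 1892 and 256 CPM. That population held the highest fibroblast marker sums, 87170.2 to 117374 CPM. Of 26 integrin, hemidesmosome and focal adhesion genes, 20 rose and none fell, with a median log2 fold change of 1.51, while 1 fell without CD200+ non-MRU of mouse 6. Itga3, a laminin receptor chain, was 11.4-fold higher (SE 0.19), and dystonin (Dst), which links hemidesmosomes to keratin, 7.41-fold (SE 0.29). Itga6 and Col17a1 belong to the same structure and are given above.

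Cell junction genes changed in both directions. Of 32 tight junction, adherens and polarity genes, 13 rose and 11 fell, and the median was -0.05. P-cadherin, Cdh3, the basal cadherin, was at 50.2, 43.6, 42.3, 43.5 and 38.8 CPM in CD200+CD200R1+ MRU and 0.0789, 3.28, 1.21, 1.03 and 0.0816 CPM in CD200+ non-MRU. The fold was 37.3 (SE 0.53, adjusted p = 8.49e-08), and 72.8 without CD200+ non-MRU of mouse 3. Desmoplakin (Dsp) was 7.98-fold higher (SE 0.34) and the polarity gene Pard3 3.77-fold (SE 0.18). The claudins of luminal tight junctions fell, with Cldn3 at 74.3 ± 19.8 against 430.3 ± 46.8 CPM (5.79-fold, SE 0.22), Cldn4 6.36-fold lower (SE 0.39) and Cldn8 12.3-fold (SE 0.42). E-cadherin, Cdh1, named after its values were seen, did not pass at 89.1 ± 20.6 against 75.7 ± 16 CPM (log2 0.24, SE 0.21), but passed when the 10 libraries were fitted alone with mouse as a block (log2 0.28, adjusted p = 0.0421).

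**Figure D3:**
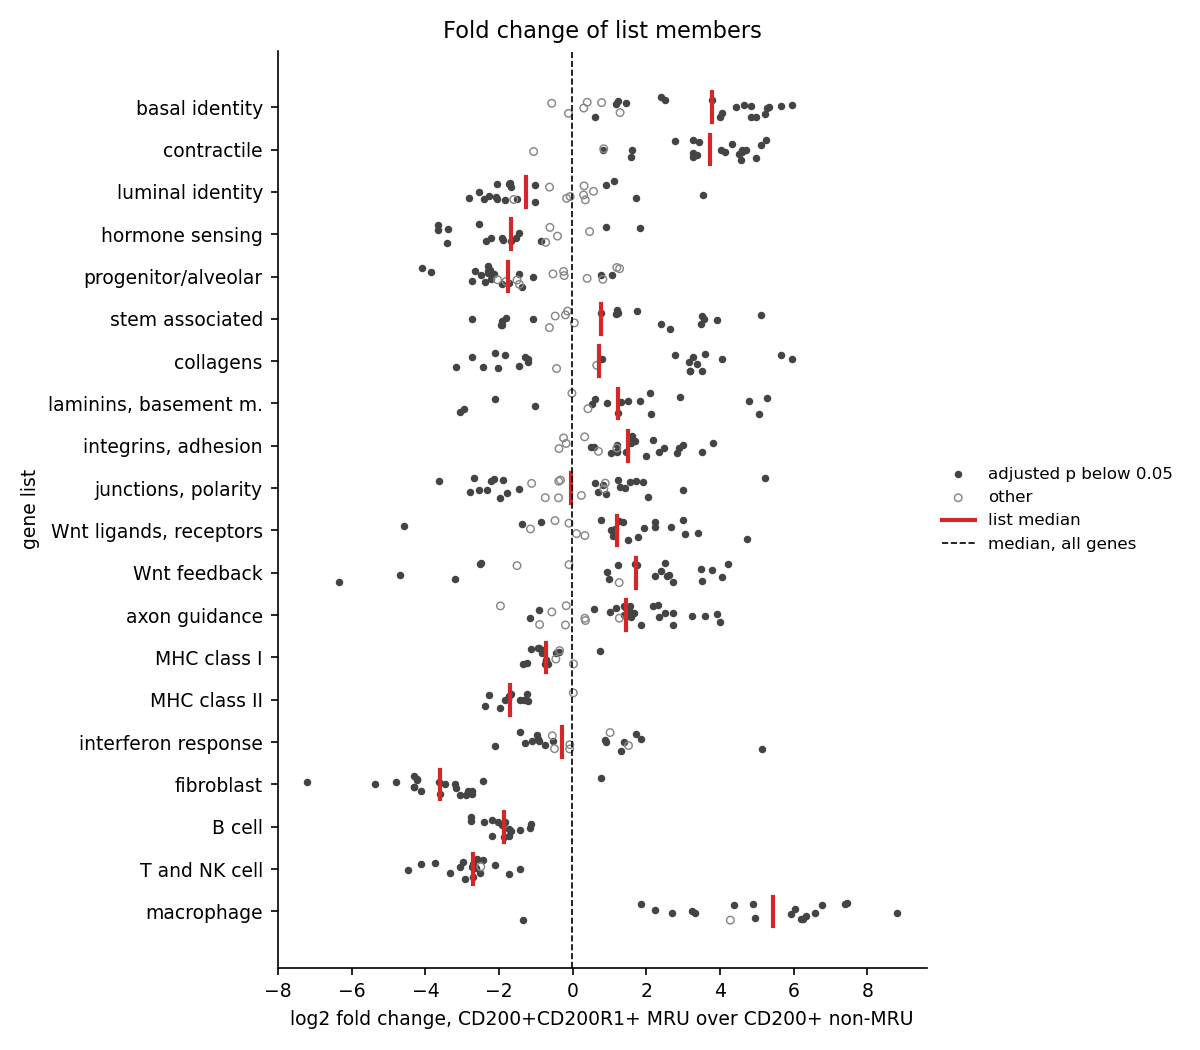
Fitted log2 fold change of each tested member of 20 gene lists (points; filled where the adjusted p is below 0.05) with the list median as a bar. The dashed line is the median of all genes tested, -0.029. Basal, contractile and macrophage members lie to the right and fibroblast, T and NK cell and MHC class II members to the left.

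Wnt pathway receptors, ligands and feedback genes were mostly higher in CD200+CD200R1+ MRU. Of 24 ligands and receptors, 16 rose and 3 fell, with a median log2 fold change of 1.21. Among receptors, Fzd7 (ENSMUSG00000041075, chromosome 1, 59482424 to 59486955, plus strand), a Frizzled of basal mammary cells, stood at 98.4, 98.5, 74.4, 87.5 and 96 CPM on the MRU side. In CD200+ non-MRU it stood at 2.29, 3.98, 5.88, 3.68 and 1.14 CPM, and the fold was 26.6 (SE 0.35, adjusted p = 9.64e-10). The co-receptor Ryk was 4.71-fold higher (SE 0.17). Among ligands, Wnt10a was 8.3-fold higher (SE 0.38), and Wnt2 was 24.1-fold lower (SE 0.51), at 1.87 ± 0.823 against 45.1 ± 20.9 CPM. The other members that fell were the ligand Wnt4 and the receptor Fzd4. Wnt4 was 1.82-fold lower (SE 0.30, adjusted p = 0.0237), with adjusted p-values of up to 0.0874 when a library was dropped. Its call was lost on dropping CD200+CD200R1+ MRU of mouse 4 or 6, or CD200+ non-MRU of mouse 3, 4 or 5. Of 24 feedback genes, antagonists and nuclear effectors, 16 rose and 5 fell, with a median of 1.73, and 3 fell when the 10 libraries were fitted alone, with or without mouse as a block. The R-spondin receptors Lgr4, Lgr5 and Lgr6 were 13.8-fold (SE 0.26), 11.2-fold (SE 0.42) and 11.3-fold (SE 0.26) higher. Lgr5 (ENSMUSG00000020140, chromosome 10, 115450311 to 115587780, minus strand), which marks Wnt-responsive stem cells in several epithelia, had 32.9, 31.6, 40.5, 32.5 and 17.8 CPM against 1.26, 1.05, 2.86, 5.44 and 3.26 CPM. The secreted antagonists Sostdc1 and Wif1 were 18.8-fold (SE 0.49) and 16.8-fold (SE 0.68) higher, the latter 31.3-fold without CD200+ non-MRU of mouse 4. The antagonists Sfrp2 and Sfrp4 and the nuclear factor Lef1 were 9.24-fold (SE 0.45), 80.7-fold (SE 0.61) and 5.67-fold (SE 0.42) lower. Mean levels of Wnt2, Sfrp2, Sfrp4 and Lef1 in the fibroblast-marker-rich CD200R1+ non-MRU were 164, 356, 284 and 23.7 CPM. Lef1 was higher in CD200+ non-MRU, at a mean of 38.1 CPM. There it was highest in mouse 6, at 61.9 CPM, the library with the lowest fibroblast marker sum of that population. The part of fibroblast markers or of other cells in these values was not tested.

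Of 23 genes that have been used as mammary stem cell markers, 12 rose (52.2%) and 6 fell (26.1%), against 23.9% and 24.6% of all genes tested. The median log2 fold change was 0.78. The share that fell was near that of all genes, so the falls named here are single genes and not a result about the list. The Notch ligand Dll1 was 34.9-fold higher (SE 0.41), and 53.4-fold without CD200+ non-MRU of mouse 5. Nrp2, a semaphorin co-receptor, was 15-fold higher (SE 0.40). The markers Procr, the protein C receptor, and Tspan8, a tetraspanin, were 3.48-fold (SE 0.39) and 3.78-fold (SE 0.29) lower, and the transcription factor Zeb1 3.85-fold (SE 0.18).

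Other signalling families differed in the share of members that changed, and a few genes of each are named. Of all genes tested, 23.9% rose and 24.6% fell. Risers made up 52.9% of TGF-beta and BMP, 56.25% of FGF, 58.3% of hedgehog and 52.9% of Hippo genes. The shares that fell were 17.6%, 18.75%, 25% and 23.5% in that order, near or below that of all genes. The lower genes named from these families are therefore single genes and not a family result. For axon guidance the shares were 68.75% and 6.25%. The neuregulin Nrg1, an ERBB ligand of myoepithelial cells, stood at 75.6, 61.5, 62.4, 65.8 and 98.4 CPM in CD200+CD200R1+ MRU and 2.84, 3.21, 5.2, 3.24 and 2.37 CPM in CD200+ non-MRU, 21.5-fold higher (SE 0.30, adjusted p = 2.72e-10). Tgfa was 8.83-fold higher (SE 0.45), against the fall of Areg. Of 16 EGF family genes 5 rose (31.25%) and 3 fell (18.75%), against 23.9% and 24.6% of all genes tested. Their median log2 fold change was -0.25. The Notch ligands Jag2 and Jag1 were 28.5-fold (SE 0.55) and 2.76-fold (SE 0.25) higher. Of 23 Notch genes 7 rose (30.4%) and 4 fell (17.4%), with a median log2 fold change of -0.29. The number that fell was 2 without CD200+CD200R1+ MRU of mouse 3, 2 on dropping CD200+ non-MRU of mouse 4 and 1 on dropping CD200+ non-MRU of mouse 6. Of 34 TGF-beta and BMP genes, 18 rose and 6 fell, among them Ltbp2, a latent TGF-beta binding protein family member, 34.6-fold higher (SE 0.51), the activin antagonist Fst, 5.92-fold higher (SE 0.33), and the ligands Tgfb1 and Bmp4, 4.13-fold (SE 0.20) and 4.24-fold (SE 0.39) lower. Of 16 FGF genes, 9 rose and 3 fell. The decoy-like receptor Fgfrl1 and the FGF target Etv5 were 9.66-fold (SE 0.35) and 8.66-fold (SE 0.30) higher, and the stromal ligand Fgf7 was 20.3-fold lower (SE 0.47). Of 12 hedgehog genes, 7 rose and 3 fell, and the co-receptors Gas1 and Boc were 7.84-fold (SE 0.28) and 5-fold (SE 0.18) higher while the target Gli1 was 6.7-fold lower at 0.224 ± 0.145 against 1.55 ± 0.964 CPM. Of 17 Hippo pathway genes and targets, 9 rose and 4 fell. The YAP targets Ctgf and Cyr61, which often move together, did not: Ctgf averaged 1217 ± 287 against 56.5 ± 23.6 CPM, 21.5-fold higher (SE 0.32), and Cyr61 789 ± 188 against 1460.0 ± 179 CPM, 1.85-fold lower (SE 0.18, adjusted p = 0.000296). Tead1, a partner of YAP, was 10.4-fold higher (SE 0.22). Of 32 axon guidance genes, 22 rose and 2 fell, with a median of 1.45, and Slit2, a repellent ligand, averaged 47 ± 4.46 against 2.89 ± 1.72 CPM, 16.1-fold higher (SE 0.28). Without CD200+ non-MRU of mouse 6, 4 guidance genes fell.

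Markers of cells other than epithelium were present on both sides, and they differed between them. Of 21 fibroblast markers, 20 fell and 1 rose in CD200+CD200R1+ MRU, with a median log2 fold change of -3.61. Pi16 (ENSMUSG00000024011, chromosome 17, 29317680 to 29330593, plus strand), a marker of adventitial fibroblasts, stood at 2.92, 1.06, 3.55, 4.3 and 0.874 CPM on the MRU side. In CD200+ non-MRU it stood at 493, 455, 382, 413 and 139 CPM, lowest in mouse 6, and the fold was 149 lower (SE 0.67, adjusted p = 2.32e-08). Decorin (Dcn), a matrix proteoglycan, averaged 657 ± 60.5 against 8037 ± 2498 CPM, 12.2-fold lower (SE 0.23), and gelsolin (Gsn) was 18.8-fold lower (SE 0.28). The single marker that rose was the fibulin Fbln2, 1.7-fold (SE 0.26, adjusted p = 0.0191), a call lost when the CD200+CD200R1+ MRU library of mouse 4 was dropped (adjusted p = 0.0511).

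Of 16 B-cell markers, all 16 fell, with a median log2 fold change of -1.87, and of 18 T and NK cell markers, 17 fell, with a median of -2.70. Cd3e (ENSMUSG00000032093, chromosome 9, 44998740 to 45009627, minus strand), the CD3 epsilon chain of T cells, had 13.8, 9.21, 7.62, 13.9 and 21.6 CPM in CD200+CD200R1+ MRU. In CD200+ non-MRU it had 217, 154, 97.4, 175 and 247 CPM, 13.4-fold lower on the MRU side (SE 0.41, adjusted p = 2.40e-07). The B-cell receptor component Cd79a averaged 152 ± 26.7 against 804 ± 178 CPM, 5.3-fold lower (SE 0.33). CD200 is known on lymphocytes as well as on epithelium. Summed over the list, B-cell markers reached 706 to 1199 CPM in CD200+CD200R1+ MRU and 2881 to 5630.4 in CD200+ non-MRU. The T and NK cell sums were 138 to 289 and 680.3 to 1860.3 CPM, and no member of either list was at 0 in all libraries of a side. Both sides had been depleted of lineage-positive cells before the sort.

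Macrophage genes were higher in CD200+CD200R1+ MRU, with a list median of 5.44 on the log2 scale. Of 20 genes, 18 rose and 1 fell, the pan-leukocyte gene Ptprc, which lymphocytes share, at 201 ± 40.7 against 515 ± 126 CPM. Retnla (ENSMUSG00000061100, chromosome 16, 48842551 to 48844461, plus strand), a secreted protein of alternatively activated macrophages, stood at 7129.9, 9998, 13083, 8294 and 3403 CPM in CD200+CD200R1+ MRU. It stood at 36.6, 23.5, 67.3, 85.2 and 35.2 CPM in CD200+ non-MRU, and the fold was 169 (SE 0.80, adjusted p = 1.94e-07). Mrc1 (ENSMUSG00000026712, chromosome 2, 14229392 to 14332057, plus strand), the mannose receptor CD206, had 239, 318, 395, 339 and 208 CPM against 2.68, 1.26, 0.301, 1.4 and 3.02 CPM. The fold was 174 (SE 0.51, adjusted p = 3.51e-10), and the complement chain C1qc was 109-fold higher (SE 0.39). Fcgr1, the high-affinity IgG receptor CD64, had 768 counts on the MRU side and 1 on the other, in mouse 5, a ratio of count rates of 752 with an exact 95% counting interval of 135 to 29730.4. Slfn4, a schlafen gene of myeloid cells, had 1054 counts against 0, at least 344-fold higher on a floor of 3 counts over the population. Lyve1, shared by tissue macrophages and lymphatic vessels, was 73.1-fold higher (SE 0.89), and 163-fold without CD200+ non-MRU of mouse 6. The macrophage sum was 10709, 15094, 20431, 12634 and 7376 CPM in the MRU libraries of mice 2 to 6 and 756, 589, 599, 800.0 and 1107 CPM in the CD200+ non-MRU libraries. Every MRU library lay above every CD200+ non-MRU library, with the highest value in mouse 4 and the lowest in mouse 6. No list member was at 0 in all libraries of a side, and in the remaining MRU, the MRU that were not positive for both proteins, the sum was 2581 to 5318 CPM. Whether these transcripts came from macrophages sorted with the MRU was not tested.

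**Figure D4:**
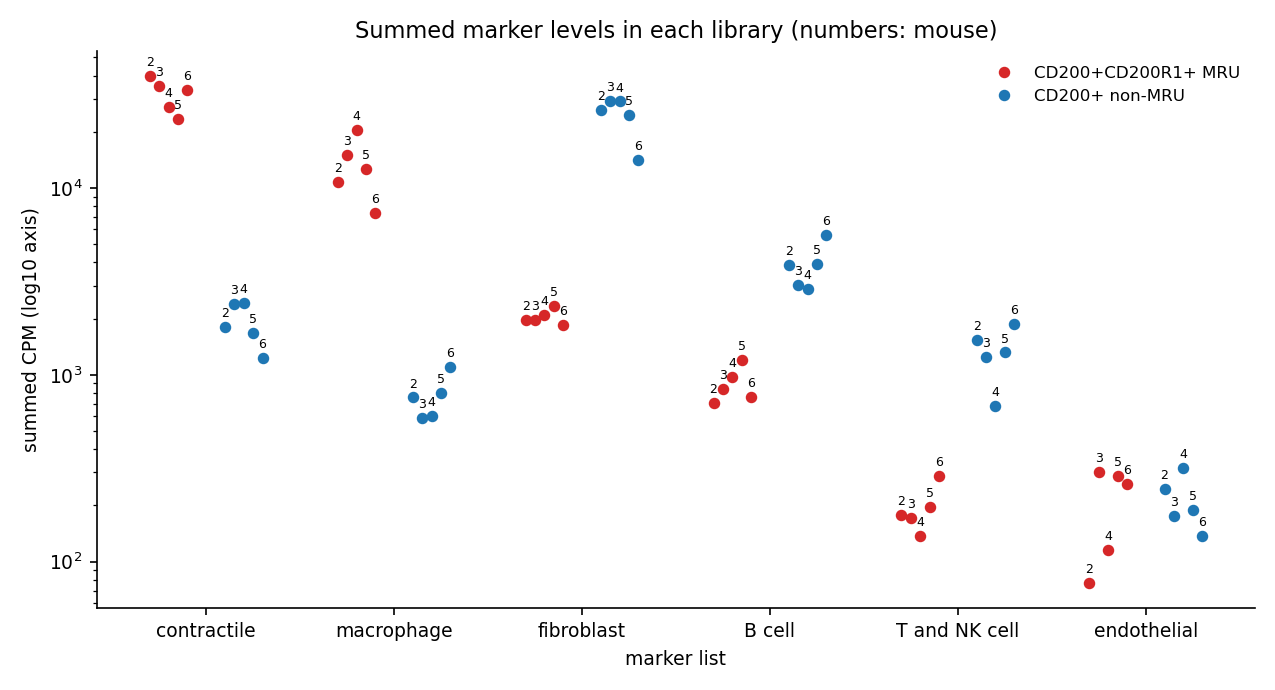
Summed CPM of 6 marker lists in each of the 10 libraries, on a log10 axis, by population, with the mouse number beside each point. The fibroblast, B-cell and T and NK cell sums are higher in all CD200+ non-MRU libraries and the macrophage and contractile sums in all CD200+CD200R1+ MRU libraries, while the endothelial sums overlap.

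Chemokine and interferon genes were examined beside those sums. Of 24 chemokines, 10 rose (41.7%) and 4 fell (16.7%), against 23.9% and 24.6% of all genes tested. Ccl24, Ccl6, Ccl4 and Ccl9, chemokines that myeloid cells secrete, were 80.2-fold (SE 0.68), 44.5-fold (SE 0.57), 28-fold (SE 0.58) and 21.9-fold (SE 0.48) higher. Ccl4 had 1723, 2502, 2725, 2777 and 1482 CPM on the MRU side and 21.9, 56.6, 48.4, 43 and 230.5 CPM on the other. Without CD200+ non-MRU of mouse 6, which was the highest of its group for Ccl4, Ccl6 and Ccl9, their folds were 54.7, 93 and 39.8. The eotaxin Ccl11 was 7.7-fold lower (SE 0.31), at 56.7 ± 13.9 against 436 ± 181 CPM. Ifnb1 (ENSMUSG00000048806, chromosome 4, 88522025 to 88522774, minus strand), the gene of interferon beta, stood at 39.9, 81.9, 94.9, 61.1 and 32.9 CPM in CD200+CD200R1+ MRU. It stood at 0, 0.0697, 0.452, 0.809 and 0.816 CPM in CD200+ non-MRU, and the fold was 143 (SE 0.73, adjusted p = 8.84e-08). Of 22 interferon response genes, 7 rose (31.8%) and 9 fell (40.9%), with a median log2 fold change of -0.29. Rsad2 (ENSMUSG00000020641, chromosome 12, 26442746 to 26456452, minus strand), which encodes the antiviral enzyme viperin, had 230.5, 396, 570.2, 328 and 177 CPM against 4.26, 3.56, 26.5, 12.4 and 1.55 CPM. It was 35.1-fold higher (SE 0.67, adjusted p = 2.45e-06), and 64.3-fold without CD200+ non-MRU of mouse 4. Oasl1, which is known to restrain interferon production, was 124-fold higher (SE 0.52). Gbp2, a guanylate-binding protein, was 2.45-fold lower (SE 0.31, adjusted p = 0.00144), at 29.1, 32.5, 27.5, 59 and 25.4 CPM against 81.7, 79.6, 109, 96.3 and 58.9 CPM with the groups overlapping, and Usp18, an inhibitor of interferon signalling, 4.31-fold lower (SE 0.29). In the MRU libraries Ifnb1, Rsad2 and Oasl1 were each highest in mouse 4, followed by mice 3, 5, 2 and 6. The macrophage sum had this order too, but Retnla made up 63.3% of it. Without Retnla the sum was lowest in mouse 2, at 3580 CPM, with 3974 CPM in mouse 6 and 7349 CPM in mouse 4. Of the 20 markers, 15 were highest in mouse 4 and 3, namely Retnla, Lyz2 and Csf1r, had the order of the sum, whereas Fcgr1 and Lyve1 were highest in mouse 6. The part of macrophage RNA in these results was not tested.

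Rsad2 and Gbp2 are shown together because they changed in opposite directions while both promoters hold the core of the interferon-stimulated response element, searched as GAAA, any 2 bases and GAAA again. The 250 bases before the RefSeq starts (GRCm38.p6) lie at chr12:26456453-26456702 on the minus strand for Rsad2 and chr3:142620413-142620662 on the plus strand for Gbp2. Each is written 5′ to 3′ on the gene's strand, and capitals mark the match, which is on the opposite strand in both.
Rsad2: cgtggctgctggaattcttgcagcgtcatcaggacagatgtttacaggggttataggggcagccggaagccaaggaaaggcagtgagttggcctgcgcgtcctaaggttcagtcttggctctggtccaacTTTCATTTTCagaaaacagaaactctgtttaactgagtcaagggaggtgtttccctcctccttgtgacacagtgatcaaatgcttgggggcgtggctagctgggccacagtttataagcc
Gbp2: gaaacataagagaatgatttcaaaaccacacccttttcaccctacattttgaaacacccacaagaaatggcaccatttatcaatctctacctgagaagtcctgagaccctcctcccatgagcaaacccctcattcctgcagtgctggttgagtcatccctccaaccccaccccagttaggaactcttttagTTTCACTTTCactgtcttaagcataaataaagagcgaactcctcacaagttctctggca
The matches began at -120 and -59 from the start sites. Searched on both strands, the element was in 10 of the 17 interferon response genes with a window and in 978 of 32851 windows, 2.98%. A gene counted if any of its windows matched, and some genes had several, so the gene and window shares differ in unit. The pair was picked for its opposite directions, so a match in both genes describes the choice and is not a result. A match is a description of letters and not a binding site.

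Antigen presentation genes were lower in CD200+CD200R1+ MRU. Of 12 MHC class II genes, 11 fell and none rose, with a median log2 fold change of -1.71, and of 17 class I genes, 13 fell and 1 rose, with a median of -0.73. The invariant chain Cd74 stood at 4102, 5171, 4079.9, 5347 and 4005 CPM on the MRU side and 16866, 13789, 13679.5, 15657 and 21272 CPM on the other, highest in CD200+ non-MRU of mouse 6. The fold was 3.58 lower (SE 0.25, adjusted p = 3.23e-06). H2-Oa and H2-Ob, which together form a class II modulator found mainly in B cells, were 4.84-fold (SE 0.28) and 3.93-fold (SE 0.27) lower. The class I heavy chain H2-D1 averaged 1786 ± 279.8 against 3428 ± 400.4 CPM, 1.92-fold lower (SE 0.15), and the immunoproteasome subunit Psmb8 was 2.53-fold lower (SE 0.16). The member that rose was the chaperone calnexin, Canx (1.66-fold, SE 0.12). B-cell markers fell with the class II genes while macrophage markers, which class II genes also mark, rose, and the part of either was not tested.

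Of 21 genes linked to immune checkpoints and evasion, 13 fell and 3 rose, with a median log2 fold change of -0.94. Cd274, the gene of PD-L1, had 17.9, 22, 23.4, 30.6 and 27.3 CPM in CD200+CD200R1+ MRU and 69.1, 55.9, 47.8, 65.3 and 88.2 CPM in CD200+ non-MRU, 2.69-fold lower (SE 0.17, adjusted p = 8.91e-07). Cd47, the ligand that restrains phagocytosis, averaged 198 ± 15.9 against 380.3 ± 23.7 CPM, 1.92-fold lower (SE 0.11), and both were chosen after their values were seen. The complement regulator Cd55 was 9.43-fold lower (SE 0.28), whereas Cd59a, which blocks the complement pore, was 2.37-fold higher (SE 0.19). The other members that rose were Entpd1 and Nt5e, the ectoenzymes CD39 and CD73 that turn ATP into adenosine, by folds of 4.14 (SE 0.20, adjusted p = 6.46e-08) and 2.29 (SE 0.38, adjusted p = 0.0125). Entpd1 had 146, 134, 108, 96.5 and 97.7 CPM against 25.6, 27.4, 39.2, 23.6 and 24.5 CPM, and Nt5e 74, 55.8, 61.1, 54.3 and 65.2 against 29.1, 19, 24.7, 42.4 and 20.6 CPM, and neither gene's groups overlapped.

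The 10 genes with the largest rise were Slfn4, Fcgr1, Mrc1, Retnla, Ifnb1, Oasl1 and C1qc, given above, and Cd209b, Il1a and C5ar1. The lectin Cd209b was 175-fold higher (SE 0.74), and 449.5-fold without CD200+ non-MRU of mouse 6. The cytokine Il1a was 109-fold higher (SE 0.97) at 15.9 ± 2.49 against 0.136 ± 0.263 CPM, and 563-fold without CD200+ non-MRU of mouse 4. The complement receptor C5ar1 was 99.7-fold higher (SE 0.52). Myeloid cells are known to express most of these genes. Fcgr1, Mrc1, Retnla and C1qc are themselves members of the macrophage list, so its sum cannot be set beside them as a separate measure. The part of macrophage RNA was not tested. The 10 with the largest fall were Pi16 and Sfrp4, given above, and C7, Gdf10, Serpina3c, Myoc, Akr1c14, Akr1c18, Pcolce2 and Reg3g. The complement component C7 averaged 0.333 ± 0.299 against 38.6 ± 19.3 CPM, 114-fold lower (SE 0.83), and Gdf10, a BMP family ligand, 1.05 ± 0.764 against 107 ± 23.8 CPM, 102-fold lower (SE 0.55). Akr1c18, which inactivates progesterone, was 78-fold lower (SE 0.75), and its relative Akr1c14 79.2-fold (SE 0.54), or 121-fold without CD200+CD200R1+ MRU of mouse 5. The procollagen enhancer Pcolce2, the serpin Serpina3c and the glycoprotein Myoc were 66.1-fold (SE 0.59), 98.7-fold (SE 0.64) and 80.2-fold (SE 1.08) lower. Myoc was 147-fold lower without CD200+CD200R1+ MRU of mouse 5 and 51.9-fold without CD200+ non-MRU of mouse 2. The antimicrobial lectin Reg3g was 63-fold lower (SE 0.75), and 120.5-fold without CD200+CD200R1+ MRU of mouse 2. Among abundant genes with a fold of at least 4, the metal-binding Mt1 and the lipid carrier Apoe rose beside Acta2, Tagln and Retnla, at 11986 ± 2293 against 2956 ± 629.8 CPM and 8835 ± 696 against 1223 ± 324 CPM, and Spp1 (osteopontin) and Anxa1 fell beside Dcn, Csn3 and Gsn, at 1193 ± 296 against 7061 ± 1315 CPM and 883 ± 87.3 against 4195 ± 1274 CPM.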

How the data were processed

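RNA was measured in 20 libraries, of which the 10 of the populations compared are reported, grouped by the sample labels. The authors deposited raw counts per gene, a normalized signal per gene, and log2 fold changes with p-values of their own comparisons, per the file headers. The deposited signal equals the raw count divided by a median-of-ratios factor. The tools were cutadapt, STAR 2.4.2a, HTSeq and DESeq2 with build GRCm38, per the submitters' processing notes. Tool settings, the gene annotation and the strandedness of counting were not given in the sources used here. Without a stated strandedness, overlapping and antisense genes cannot be told apart. No column of per-sample values was left unmapped.

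Counts were fitted with edgeR 4.0.16 in R 4.3.3 (TMM, filterByExpr by population, glmQLFit and glmQLFTest, limma 3.58.1) in a single model of all 20 libraries without a block, and p-values were adjusted by Benjamini-Hochberg over all 17236 genes tested of 46603. The SE is the absolute log2 fold change divided by the square root of F. On simulated counts for this comparison (16919 genes) the test recovered 63% of genes changed 2-fold and 96% of those changed 4-fold. Of its calls 5.92% were false. The simulation changed 100 well-counted genes at each fold and no others. Far more genes passed in the data, some at lower counts, so recovery and false calls there can differ. Alternatives were a block by mouse, the 10 libraries alone, DESeq2 size factors in edgeR, library size alone, no filter on low counts, DESeq2 1.42.0 and leaving out each library. Per the labels, libraries with the same number come from the same mouse, and their deviations from the population means correlated at 0.0354 to 0.0993, with 4 of 5 pairs correlating best with their own number. Replicate libraries differed by more than sampling noise, at a chi-square of 16.6 to 70.9 per gene over 20 pairs within populations.

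Genes named are the sort markers, the 10 genes in each direction with the largest fold among those called, not overlapping and at 10 CPM or more in the higher population, the 5 most abundant in each direction with a fold of at least 4, up to 4 called members in each direction and 2 uncalled members of each list, and any member of a count of 5 or fewer. Predicted genes were left out. The members and lists were chosen with earlier results of these data known. A library of 11317878 to 13862963 counts puts 3 counts at 0.209 to 0.245 CPM. Counting intervals and floors cover counting error only, since PCR copies without molecular identifiers are not independent molecules. Positions are from the GENCODE annotation of GRCm38 (17176 of 17236 identifiers matched), and promoter windows from RefSeq.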

Additional observations from a re-analysis of the deposited data

Results flagged for a closer look

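In 23 of 354 groups of 5 libraries tested, the highest or lowest library was farther from the others than Dixon's 95% limit allows, and chance alone flags about 1 group in 20. The CD200+ non-MRU library of mouse 6 gave 7 of these values: the casein Csn2 was high at 8600.3 CPM, as were the chemokines Ccl4 at 230.5 CPM, Ccl6 at 59.5 CPM and Ccl9 at 42.1 CPM and the lectin Cd209b at 1.55 CPM, while Tek at 14.9 CPM and Mylk at 17 CPM were low. In the same population, Entpd1 was high at 39.2 CPM and Il1a at 0.603 CPM in mouse 4, Krt18 at 5209 CPM in mouse 3 and Fcgr1 at 0.0735 CPM, a single count, in mouse 5, where the chaperone Canx was low at 246 CPM.

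Among CD200+CD200R1+ MRU, the library of mouse 2 was the highest for Itga6 at 1376 CPM, Tfap2c at 139.4 CPM and Dll1 at 159 CPM. That of mouse 4 was the highest for Lgr4 at 83.8 CPM and Cd209b at 141 CPM, that of mouse 5 for Gbp2 at 59 CPM, and that of mouse 6 was the lowest for Oxtr at 129.8 CPM.

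The mast cell proteases Cpa3, Cma1 and Mcpt4 were concentrated in a few libraries. In CD200+CD200R1+ MRU of mouse 5 they stood at 15.1, 15.7 and 8.36 CPM, each apart from the other 4 libraries, and Mcpt4, chosen after its values were seen, stood at 124 CPM in CD200+ non-MRU of mouse 5. Over mice 2 to 6, Cpa3 had 0, 0.0703, 0.906, 15.1 and 0 CPM in CD200+CD200R1+ MRU and 0, 97.6, 0, 241 and 0 CPM in CD200+ non-MRU. None of the 3 passed in the model without a block (adjusted p = 0.0577, 0.088 and 0.0682). With mouse as a block in the model of all 20 libraries the 3 passed, with adjusted p-values of 0.0247, 0.0205 and 0.0179, although in CD200+ non-MRU Cpa3 was at 0 in 3 of 5 mice. They were under the filter on low counts when the 10 libraries were fitted alone, with and without the block, so those fits gave no value. Without that filter Cpa3 and Mcpt4 passed (adjusted p = 0.0379 and 0.0474) and Cma1 did not, and none of the 3 passed with DESeq2. Cpa3 also passed on dropping CD200+ non-MRU of mouse 2, 4 or 6, and Mcpt4 on dropping that of mouse 6. Without CD200+CD200R1+ MRU of mouse 5 the adjusted p-values were 0.0141, 0.0112 and 0.015.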

How the results depend on the processing

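The number of genes that passed ran from 7720 to 9248 over the 17 alternatives, against 8359, being 9248 with DESeq2, 8003 without the filter on low counts, 8375 with DESeq2 size factors, 8351 with library size alone, 8165 with the 10 libraries alone and 7720 to 8061 when a library was left out. With mouse as a block it was 8789 in the model of all 20 libraries and 8058 in that of the 10 alone. Of 153 named genes that passed, 149 passed under all 17 alternatives, except that DESeq2 gave Krt18 no adjusted p. The others were Sox9, Fbln2 and Wnt4, given above, and Epcam (2.05-fold lower, adjusted p = 0.0245, up to 0.0829 on dropping CD200+CD200R1+ MRU of mouse 4 or 5 or CD200+ non-MRU of mouse 3, 4 or 5). Among named genes that did not pass, the log2 value of Vim ran from -0.17 to 0.011 when a library was left out, changing sign without CD200+CD200R1+ MRU of mouse 6. The mitochondrial share was 1.57 percentage points higher in CD200+CD200R1+ MRU, and paired by mouse (sign-flip permutation test) it did not reach the threshold, at p = 0.0625, the smallest that 5 pairs allow. The number of genes detected, 24216 ± 1044 against 23233 ± 537 (SD, n = 5), did not pass (exact permutation p = 0.111), while with at least 10 counts the difference was 364.6 genes (exact permutation p = 0.00794). When a library was left out the difference ran from 673 to 1385 genes, the latter without CD200+CD200R1+ MRU of mouse 6 (exact permutation p = 0.00794). Counts of list members moved by over 1.5 times in 81 recalculations and did not in 1551. The cause of these changes was not tested. Depth limits genes near 3 counts a library, 0.209 to 0.245 CPM, such as Fcgr1 in CD200+ non-MRU, with 1 count over 5 libraries.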

Other observations

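Of 13 protein-coding genes of the mitochondrial genome, 7 were tested, of which 5 rose in CD200+CD200R1+ MRU and none fell. Its ribosomal and transfer RNA genes were not on this list. The complex I subunit mt-Nd4 had 2583, 2399, 2280.5, 2958 and 2333 CPM against 1054, 1165, 1097, 1089.8 and 1089 CPM, 2.28-fold higher (SE 0.14, adjusted p = 3.75e-07), whereas mt-Co1 averaged 4798 ± 552 against 4233 ± 119.8 CPM and did not pass. Of 30 nuclear genes of oxidative phosphorylation, 10 rose and 2 fell, with a median log2 fold change of 0.22, and with mouse as a block 4 fell. The 2 that fell were Sdha, 1.47-fold (SE 0.11), and Uqcrfs1, 1.4-fold (SE 0.11). Of 30 ribosomal protein genes, 11 rose and none fell, with a median of 0.24, while 17 rose without CD200+CD200R1+ MRU of mouse 3 and 18 without CD200+ non-MRU of mouse 6, and 1 fell with mouse as a block. Among 25 cell cycle genes 6 fell (24%, against 24.6% of all genes tested) and 1 rose, the latter call being lost for 7 of 10 libraries dropped, and with mouse as a block 13 fell, and 15 with the 10 libraries alone, as did 12 without CD200+CD200R1+ MRU of mouse 4. Aurka, a mitotic kinase, was 4.61-fold lower (SE 0.55, adjusted p = 0.00226), and the replication helicase gene Mcm6 3.79-fold (SE 0.46). Genes that cell dissociation is known to induce changed in both directions, 7 of 22 rising and 7 falling. Each was 31.8% of the list, against 23.9% and 24.6% of all genes tested. Socs3 and Egr2 were 2.49-fold (SE 0.17) and 2.38-fold (SE 0.17) higher, and Myc and Junb 2.12-fold (SE 0.17) and 1.81-fold (SE 0.14) lower.

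Of 24 lipid genes 6 rose (25%) and 5 fell (20.8%), close to the 23.9% and 24.6% of all genes tested. The fatty acid transporter Cd36 averaged 118 ± 22.2 against 34.7 ± 7.48 CPM, 3.4-fold higher (SE 0.24), and the lipase Lpl 76 ± 16.4 against 329 ± 114 CPM, 4.32-fold lower (SE 0.27). Of 13 SOX factors, 8 rose and none fell, and Sox11 averaged 16.7 ± 5.51 against 0.668 ± 0.903 CPM, 24.9-fold higher (SE 0.64), and 59.2-fold without CD200+ non-MRU of mouse 2. Vessel marker sums overlapped between the sides, 77.3 to 300.3 CPM in CD200+CD200R1+ MRU and 138 to 318 in CD200+ non-MRU. Their members went in both directions, with 7 of 16 rising (43.75%, against 23.9% of all genes tested) and 1 falling. None of those that rose was free of overlap between the 5 and 5 libraries, against 18.7% of all genes. When the 10 libraries were fitted alone with mouse as a block, 3 rose. Tek, the angiopoietin receptor, was the member that fell, at 1.95, 4.29, 4.6, 9.59 and 4.08 CPM against 72.2, 60.5, 61.9, 66 and 14.9 CPM (11.2-fold, SE 0.45, adjusted p = 2.30e-06). Of 6 tested lymphatic markers 5 rose (83.3%), and 3 were higher without overlap between the libraries of the sides. Lyve1 is also on the macrophage list and Pdpn on the basal list, so this count is not particular to lymphatic vessels. Reln was at 109 ± 27.5 against 1.32 ± 0.929 CPM (82.2-fold, SE 0.41). When the 10 libraries were fitted alone with mouse as a block, 3 lymphatic markers rose.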
